A study of Homo sapiens with 6 samples.

Results

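The S100 proteins are small calcium-binding proteins that share the EF-hand fold and mostly act as dimers. Calcium binding exposes a surface through which an S100 dimer grips a target protein, often an annexin or a cytoskeletal protein. Some members also leave the cell and act there as alarmins, molecules that report damage or infection to surface receptors; S100A8 and S100A9, which together form calprotectin, are the best known of these and are abundant in neutrophils and inflamed skin. IκBζ, the nuclear protein encoded by NFKBIZ, is known as a co-activator of antimicrobial genes in inflamed keratinocytes, and S100B is a long-standing serum marker of melanoma.

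The genes described here are 10 S100 genes chosen by symbol, of the 47432 genes listed for each library: the alarmins S100A8 and S100A9, the intracellular members S100A4, S100A6, S100A10, S100A11 and S100A13, and S100A2, S100A3 and S100B. They are 10 of the 20 S100 genes in the files. RNA-seq was performed on LOX-IMVI, a long-used melanoma cell line of human origin. The cells had been transduced with lentiviral vectors and selected with puromycin, carrying either a control short hairpin RNA (shCtrl, 3 libraries) or a hairpin against NFKBIZ (shNFKBIZ, 3 libraries). A single hairpin construct against NFKBIZ and a single cell line were used, and both groups received the vector and the selection. The comparison asks which S100 transcripts change in level when NFKBIZ is knocked down.

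Each library held between 22264473 and 24624839 exon reads, that is, fragments assigned to the exons of a gene. Levels are given in TPM, a read count scaled for exon length and library depth, as mean ± SD of 3 libraries. NFKBIZ was at 41.4, 42.9 and 49.2 TPM in shCtrl and at 13.7, 14.1 and 13.3 TPM in shNFKBIZ, which is -1.78 on the log2 scale (SE 0.0581, edgeR adjusted P = 7.2e-17). Markers of the melanocyte lineage were low: MLANA and SOX10 had 0 reads in all 6 libraries, MITF was at 3.21 TPM in shCtrl and 1.998 in shNFKBIZ, and the 7 markers summed to between 3.19 and 4.23 TPM in shCtrl and between 1.79 and 2.62 in shNFKBIZ. Of the 5 markers of dedifferentiated melanoma, AXL, EGFR, SOX9 and NT5E were expressed, NGFR was near 0, and the sum was between 558 and 585 TPM in shCtrl and between 893 and 903 TPM in shNFKBIZ. SOX9 (21.6 and 55.1 TPM, log2 fold change 1.27) and NT5E (101.5 and 291.2 TPM, 1.44) were past a 2-fold threshold and higher. EGFR (0.66) and AXL (0.17) were higher by less. The 7 leukocyte markers summed to at most 0.885 TPM in any library. Of the 6 keratinocyte markers in the files, KRT1 and SPRR1B were at 0 in all libraries and KRT10 supplied most of the sum of 66.4 to 89.0 TPM, while KRT14 was at 0.570 and 1.59 TPM (log2 fold change 1.37). The 5 fibroblast markers summed to between 32.7 and 35.3 TPM in shCtrl and between 19.5 and 21.7 in shNFKBIZ, with DCN and LUM near 0. COL1A1 (31.0 and 8.85 TPM, log2 fold change -1.89) and PDGFRB (0.663 and 0.175, -1.98) were past a 2-fold threshold and lower, and PDGFRA (2.65 and 11.6, 2.06) was past it and higher. The part of these shifts in the S100 results was not tested.

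The members spanned the whole range of detection. S100A11 was the most abundant, at 1119 ± 31.5 TPM in shCtrl, followed by S100A6 at 375.7 ± 7.92, S100A10 at 118.6 ± 1.58, S100A13 at 34.0 ± 3.37, S100A3 at 13.6 ± 0.554 and S100A2 at 10.9 ± 0.348 TPM. The ranges of neighbouring genes in this order did not overlap in shCtrl. In shNFKBIZ the order of the first 4 was kept, but S100A2 (4.64 to 6.85 TPM) and S100A3 (3.998 to 5.48 TPM) overlapped. S100A4, S100A8, S100A9 and S100B were at or below the TPM worth 3 reads in every library.

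**Figure D1:**
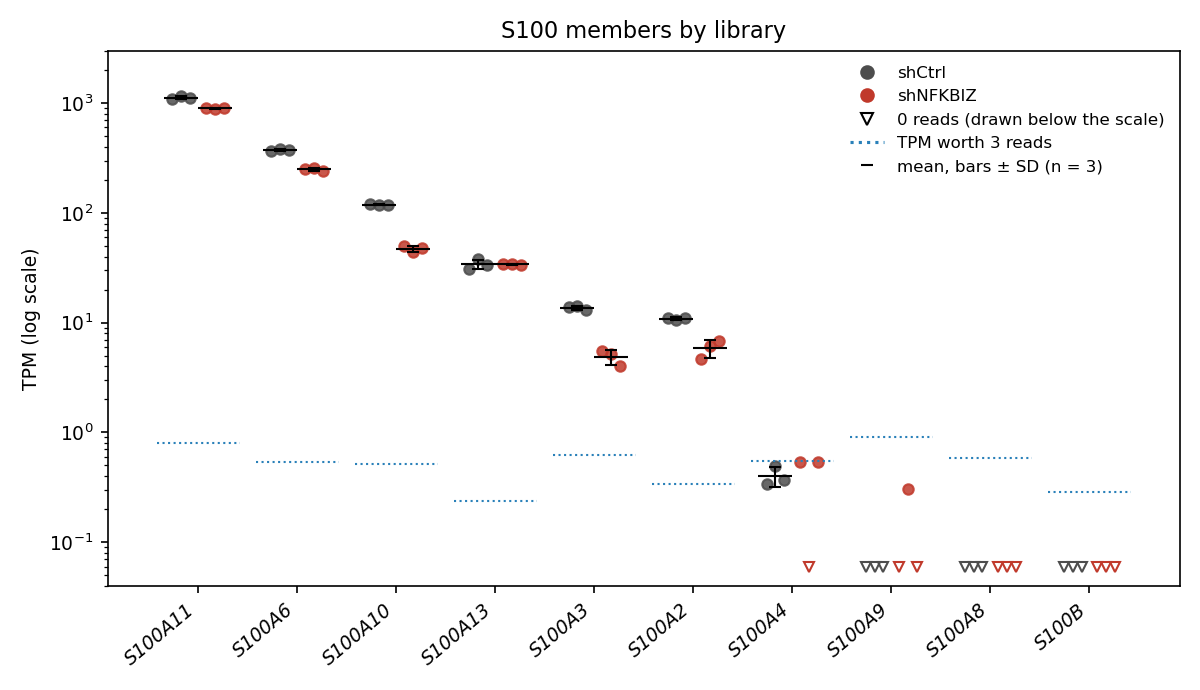
TPM of the 10 members on a log axis, with a filled point for each library, open triangles for libraries with 0 reads, black bars for the mean ± SD of 3 libraries where all 3 held reads, and a dotted line at the TPM worth 3 reads. S100A10 averaged 118.6 TPM in shCtrl and 47.4 in shNFKBIZ, S100A13 averaged 34.0 and 34.1, and the 4 members on the right lie at or under the dotted line.

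The data give little for the alarmin members of the family. S100A8 (ENSG00000143546, chromosome 1, 153390032 to 153391073, minus strand, hg38) had 0 exon reads and 0 intron reads in all 6 libraries. The 3-read limit corresponds to between 0.524 and 0.585 TPM depending on the library. S100A9 (ENSG00000163220, chromosome 1, 153357854 to 153361023, plus strand) had 0 reads in all 3 shCtrl libraries and in replicates 1 and 3 of shNFKBIZ, and 1 read in shNFKBIZ replicate 2. Its limit was between 0.815 and 0.910 TPM. No fold change can be given for either gene, and a level below these limits was not detectable at this depth.

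S100A8 and S100A9 together held 0 of 7973, 0 of 8672 and 0 of 7572 member reads in the shCtrl libraries, which allows a share of up to 0.0376%, 0.0346% and 0.0396% at 3 reads. The exact 95% upper limits of these shares were 0.0463%, 0.0425% and 0.0487%. In shNFKBIZ they held 0 of 5704, 1 of 5507 and 0 of 5692 reads. The share in replicate 2 was 0.0182%, with an exact 95% binomial interval from 0.00046% to 0.101%. These limits cover counting error only. Nearly all member reads of LOX-IMVI cells thus came from S100A11, S100A6 and the other intracellular genes in both groups.

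Genes that accompany the alarmins in inflamed skin were low as well. Of 10 such antimicrobial genes, PI3, DEFB1, DEFB4A, DEFB103A and LTF had 0 reads in all libraries, and only SAA1, an acute-phase apolipoprotein, had enough reads to be tested. SAA1 was at 5.74 ± 0.405 TPM in shCtrl and 3.44 ± 0.795 TPM in shNFKBIZ (log2 fold change -0.82, SE 0.240, adjusted P = 0.00505), and 69.3% of its reads were unique, the rest being shared with other places in the genome. TLR4, a receptor for calprotectin, had 0 reads in every library.

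S100A4 and S100B, both known from melanoma, were not expressed at a level that these libraries could compare. S100A4 (ENSG00000196154, chromosome 1, 153543613 to 153550136, minus strand), which binds non-muscle myosin and is known for its part in cell motility, held 2, 3 and 2 exon reads under shCtrl against 3, 0 and 3 under shNFKBIZ. The sums of 7 and 6 reads, scaled by the total exon reads of each group, give a ratio of shNFKBIZ to shCtrl of 0.903. Its exact 95% interval runs from 0.251 to 3.14, pools the libraries of a group and covers counting error only. Its target MYH9, the heavy chain of that myosin, was at 283 ± 13.1 and 302 ± 13.4 TPM (log2 fold change 0.0080, adjusted P = 0.872). S100B (ENSG00000160307, chromosome 21, 46598604 to 46605208, minus strand) had 0 exon and 0 intron reads in all 6 libraries, with a limit between 0.258 and 0.289 TPM.

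The other 6 members passed the filter on low counts and were tested with the quasi-likelihood test of edgeR, with adjustment over all 13843 genes tested. A gene passed the threshold when its adjusted P was no higher than 0.05 and the groups differed at least 2-fold. In shNFKBIZ, S100A10 and S100A3 were lower and past this threshold, and no member was past it and higher. Across all genes tested, 5.12% were past the threshold and lower and 3.84% past it and higher, or 709 and 532 genes. With library size as the only scaling this split was 584 and 668. S100A2, S100A6 and S100A11 were also lower with an adjusted P below 0.05, but by less than 2-fold, so that 5 of the 6 tested members were lower by that criterion, which 32.8% of all genes met. The same 5 members had no overlap between the groups, with shNFKBIZ lower, as did 34.6% of all genes. Only S100A13 of the 6 did not pass. Since members were chosen by name with earlier results known, these counts are a description.

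**Figure D2:**
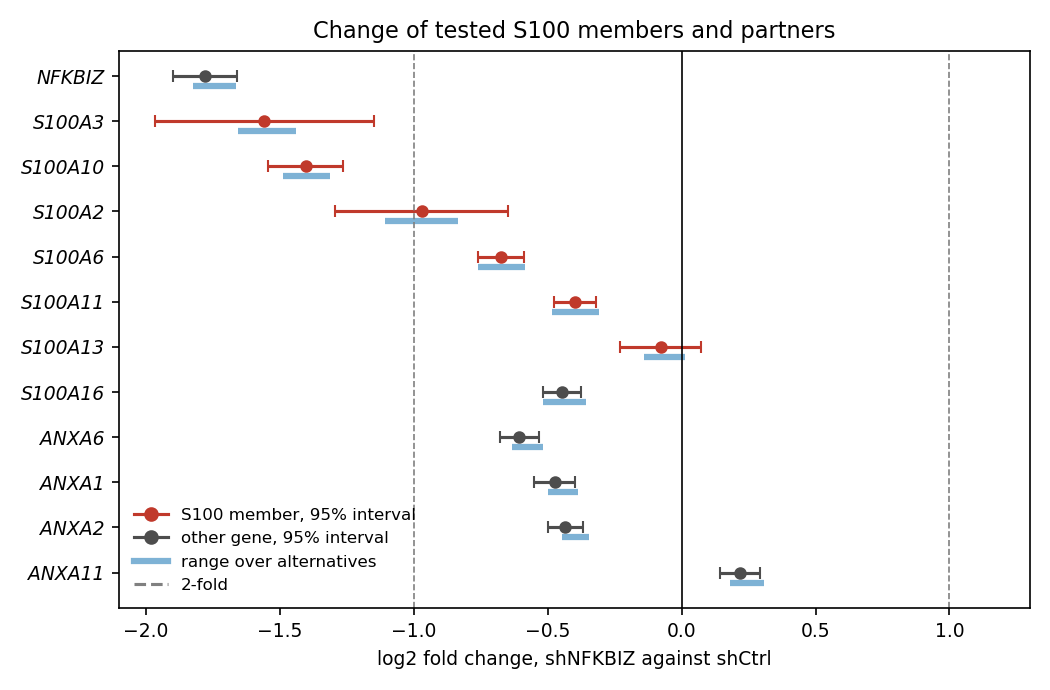
Log2 fold change of shNFKBIZ against shCtrl (points) with 95% intervals for the 6 tested members (red), and for NFKBIZ, S100A16 and annexins (grey), over 3 libraries per group; blue bars span the values under the 17 alternative settings and dashed lines mark 2-fold. The members run from -1.56 for S100A3 to -0.08 for S100A13, and the interval of S100A2 crosses the 2-fold line.

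S100A10 (ENSG00000197747, chromosome 1, 151982915 to 151993859, minus strand), also called p11, is the member that does not need calcium: it stays in the open form, joins annexin A2 in a heterotetramer and binds plasminogen at the cell surface. The shCtrl libraries held 756, 761 and 692 of its exon reads and the shNFKBIZ libraries 296, 256 and 290. In TPM, the levels were 120.2, 117.0 and 118.6 against 49.94, 43.99 and 48.18. Every shCtrl library was far above every shNFKBIZ library. The transcript was 2.65-fold lower in shNFKBIZ (log2 fold change -1.40, SE 0.0671, 95% interval -1.54 to -1.27, adjusted P = 5.35e-14). Reads that cross a junction between spliced exons were separated as well, at 178, 177 and 170 against 65, 53 and 46. In such bulk libraries, fewer cells with a transcript and less transcript per cell cannot be told apart.

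S100A3 (ENSG00000188015, chromosome 1, 153547329 to 153549258, minus strand) is a cysteine-rich member best known from the hair cuticle. Its exon reads numbered 72, 76 and 63 in shCtrl and 27, 25 and 20 in shNFKBIZ, or 13.77, 14.06 and 12.99 against 5.48, 5.17 and 3.998 TPM. The groups were well apart, and the transcript was 2.95-fold lower (log2 fold change -1.56, SE 0.197, 95% interval -1.97 to -1.15, adjusted P = 4.36e-07). The interval is wider than that of S100A10, whose counts were higher. Its locus lies inside that of S100A4 on the same strand, and S100A4 held at most 3 reads in any library. Junction reads of S100A3 were 21, 20 and 20 against 3, 8 and 1.

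S100A2 (ENSG00000196754, chromosome 1, 153561108 to 153567890, minus strand), a nuclear member of epithelial cells, was covered by 106, 104 and 99 exon reads under shCtrl against 42, 54 and 63 under shNFKBIZ. Levels were 11.03, 10.47 and 11.10 against 4.64, 6.07 and 6.85 TPM, so that the groups did not overlap and the shNFKBIZ libraries were the more variable. The difference was 1.96-fold (log2 fold change -0.97, SE 0.155, 95% interval -1.29 to -0.65, adjusted P = 1.1e-05), just short of 2-fold. It passed 2-fold without shNFKBIZ replicate 3 (-1.11) and when a trend with exon length was removed (-1.05).

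S100A6 (ENSG00000197956, chromosome 1, 153534599 to 153536244, minus strand), or calcyclin, was first known from proliferating cells. Exon reads were 2216, 2388 and 2113 in shCtrl and 1429, 1421 and 1398 in shNFKBIZ. Levels were 367.1, 382.6 and 377.3 against 251.3, 254.5 and 242.0 TPM. The difference of 1.60-fold (log2 fold change -0.67, SE 0.0411, adjusted P = 3.56e-12) was larger than the spread between replicates. CACYBP, which encodes the calcyclin-binding protein, was at 159 ± 7.76 and 168 ± 3.25 TPM (log2 fold change -0.00375, adjusted P = 0.937).

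S100A11 (ENSG00000163191, chromosome 1, 152032506 to 152047907, minus strand), a partner of annexin A1 in membrane repair, drew 4394, 4804 and 4177 exon reads under shCtrl against 3463, 3313 and 3472 under shNFKBIZ. Levels were 1089, 1152 and 1116 against 911, 888 and 899 TPM. The groups did not overlap, and the difference was the largest of the members in TPM but only 1.32-fold (log2 fold change -0.40, SE 0.0377, adjusted P = 5.75e-09).

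S100A13 (ENSG00000189171, chromosome 1, 153618787 to 153631360, minus strand) takes part in the release of FGF1, a growth factor without a signal peptide. Exon reads of this gene were 427, 536 and 426 in shCtrl and 444, 437 and 446 in shNFKBIZ. Levels were 31.0, 37.6 and 33.3 against 34.2, 34.3 and 33.8 TPM, and all 3 shNFKBIZ libraries fell within the range of shCtrl. The log2 fold change was -0.08 (SE 0.0730, 95% interval -0.23 to 0.07, adjusted P = 0.357), and its sign changed without shCtrl replicate 2 (0.012) and with library size as the only scaling (0.011). The lower end of this interval, -0.23, belongs to the fit with TMM factors on all 6 libraries and sets no limit for other settings. The log2 fold change was -0.14 without shCtrl replicate 1 (SE 0.0786) and -0.14 when a trend with exon length was removed (SE 0.0724). Of its reads, 64.4% were unique, and the locus overlaps S100A1 on the opposite strand and the lncRNA gene ENSG00000271853 on the same strand; S100A1 held at most 5 reads and the lncRNA at most 23 in any library. With unique reads alone the log2 fold change was -0.10 (SE 0.0852). FGF1 was at 13.7 ± 0.643 and 13.8 ± 0.600 TPM (log2 fold change -0.07, adjusted P = 0.355).

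The members did not all differ by the same factor: the 95% intervals of S100A10 (-1.54 to -1.27), S100A6 (-0.76 to -0.59), S100A11 (-0.48 to -0.32) and S100A13 (-0.23 to 0.07) do not overlap. Summed over the 10, they made up 1632, 1714 and 1670 TPM in shCtrl and 1257, 1232 and 1235 TPM in shNFKBIZ, a 1.35-fold lower sum. The share of S100A11 in that sum was 66.9% ± 0.249 in shCtrl and 72.5% ± 0.391 in shNFKBIZ. The share of S100A6 was 22.5% ± 0.138 and 20.1% ± 0.533, and that of S100A10 was 7.10% ± 0.267 and 3.81% ± 0.215. S100A13 held 2.03% ± 0.151 and 2.75% ± 0.0319. S100A3 held 0.814% and 0.393%, and S100A2 held 0.650% and 0.472%. S100A10, S100A6, S100A3 and S100A2 thus held smaller shares of the sum in shNFKBIZ, and S100A11 and S100A13 larger ones, although the level of S100A11 was lower and that of S100A13 showed no detectable change. S100A16, which is no member, is not in this sum.

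A ratio of levels within a library does not depend on how the libraries were scaled. S100A10 over S100A11 was 0.110, 0.102 and 0.106 in shCtrl and 0.0548, 0.0496 and 0.0536 in shNFKBIZ. S100A10 over S100A13 was 3.88, 3.11 and 3.56 against 1.46, 1.28 and 1.42. S100A6 over S100A11 was 0.337, 0.332 and 0.338 against 0.276, 0.287 and 0.269. In all of these the groups did not overlap, and the two-sided exact permutation P was 0.1, the smallest that 3 libraries against 3 can give. S100A3 over S100A2, by contrast, was 1.25, 1.34 and 1.17 against 1.18, 0.851 and 0.584, which overlapped (exact permutation P = 0.2). A total of 8 such ratios were computed, and none can reach a P of 0.05 in this design.

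Intron reads come mainly from unspliced transcripts and were fitted in the same way on their own counts, which gave 12119 tested genes. S100A10 had 26, 20 and 29 intron reads in shCtrl and 9, 17 and 7 in shNFKBIZ (log2 fold change -1.27, SE 0.314, adjusted P = 0.00138). It was the only one of the 5 members with testable introns to pass the threshold or an adjusted P of 0.05, against 3.89% of all genes past the threshold and lower and 19.5% lower at that adjusted P. The exon change of S100A10 minus its intron change was -0.12 (95% interval -0.75 to 0.51, adjusted P = 0.817), so that no difference between them was detectable with these few reads.

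S100A2 gave other values. Its introns held 9, 11 and 11 reads in shCtrl and 10, 18 and 6 in shNFKBIZ. Their log2 fold change was 0.04 (SE 0.383, adjusted P = 0.946), and its sign changed without shCtrl replicate 1 (-0.05) and without shNFKBIZ replicate 2 (-0.42). Its exon change minus its intron change was -0.99 (95% interval -1.80 to -0.19, adjusted P = 0.0554), which missed the threshold. Across all 11025 genes in that model, 15.7% had an exon change below the intron change with an adjusted P no higher than 0.05, and none of the 5 members did.

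For S100A6 the intron reads were 21, 19 and 18 against 13, 11 and 17 (log2 fold change -0.59, adjusted P = 0.121), and for S100A11 they were 33, 28 and 30 against 29, 26 and 26 (-0.26, adjusted P = 0.386). S100A13 had 73, 61 and 58 intron reads against 66, 65 and 54 (-0.14, adjusted P = 0.502), so that neither its exons nor its introns showed a detectable change. NFKBIZ itself had 252, 251 and 271 intron reads against 135, 122 and 125 (-1.11, SE 0.0983, adjusted P = 9.83e-12). Its exon change minus its intron change was -0.66 (95% interval -0.88 to -0.44, adjusted P = 9.59e-07 in the exon against intron model).

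**Figure D3:**
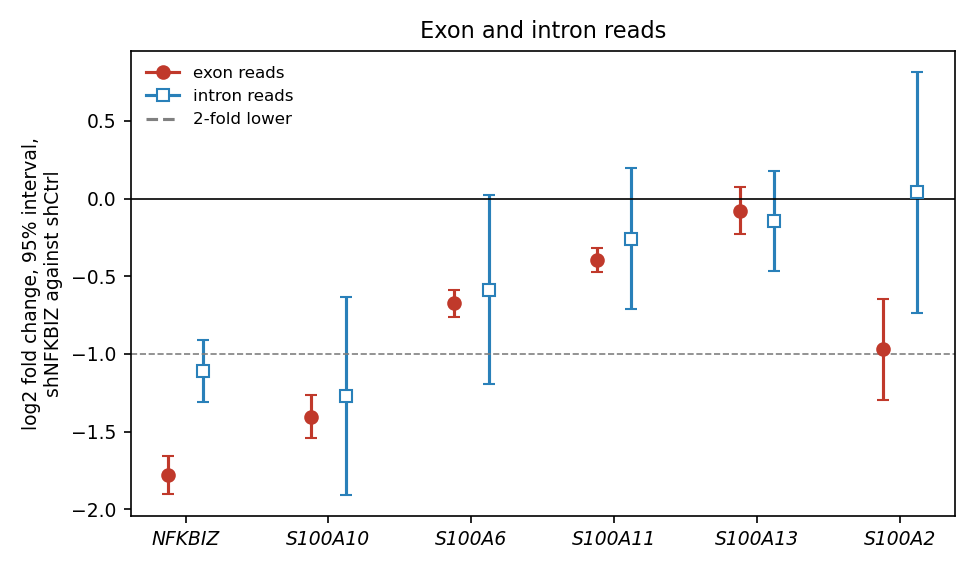
Log2 fold change of shNFKBIZ against shCtrl for exon reads (filled circles) and intron reads (open squares) of NFKBIZ and the 5 members with testable introns, with 95% intervals over 3 libraries per group and a dashed line at 2-fold lower. The exon and intron values of S100A10 lie together at -1.40 and -1.27, while those of S100A2 are -0.97 and 0.04 with a wide interval for the introns.

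The annexins are the main partners of S100 proteins at membranes. Of 9 genes in the list of annexin partners and the scaffold AHNAK, 8 were tested, none was past the threshold, 6 were lower and 2 higher by adjusted P alone (32.8% of all genes were lower and 4496 of 13843 higher), and the median log2 fold change was -0.21, against 0.00431 over all genes tested. Among the 6 lower, ANXA5 (-0.15) and ANXA7 (-0.17) shifted little. The TPM of ANXA7 overlapped between the groups (127.0 to 135.7 in shCtrl, 119.3 to 127.1 in shNFKBIZ). ANXA2, the partner of S100A10, was at 313.5 ± 11.5 TPM in shCtrl and 245.5 ± 4.38 in shNFKBIZ (log2 fold change -0.43, SE 0.0314, adjusted P = 6.42e-11). The ratio of S100A10 to ANXA2 within a library was 0.390, 0.383 and 0.363 in shCtrl and 0.205, 0.176 and 0.199 in shNFKBIZ, with no overlap (exact permutation P = 0.1, the smallest possible). Both genes of the heterotetramer were thus lower, S100A10 by 2.65-fold and ANXA2 by 1.35-fold.

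ANXA1, the partner of S100A11, was at 851 ± 35.3 and 647 ± 20.1 TPM (log2 fold change -0.47, SE 0.0362, adjusted P = 1.6e-10). The ratio of S100A11 to ANXA1 was 1.31, 1.39 and 1.25 in shCtrl and 1.39, 1.42 and 1.36 in shNFKBIZ, so that the groups overlapped (exact permutation P = 0.2). Of the annexins that bind S100A6, ANXA6 was at 268 ± 4.95 and 186 ± 3.96 TPM (log2 fold change -0.61, adjusted P = 1.49e-12) while ANXA11 was at 80.0 ± 1.501 and 98.5 ± 1.995 TPM (0.22, adjusted P = 1.75e-05).

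Among 11 targets of S100 proteins, some of them secreted, 9 were tested, and their median log2 fold change was -0.00375. Past the threshold and lower were 2 of them, PLAT and PLAU, as were 5.12% of all genes tested. PLAT, tissue plasminogen activator, was at 81.6 ± 2.74 TPM in shCtrl and 24.4 ± 1.02 in shNFKBIZ (log2 fold change -1.82, SE 0.0412, adjusted P = 1.61e-19). PLAU, the urokinase-type activator, was at 8.12 ± 0.837 and 3.92 ± 0.554 TPM (log2 fold change -1.13, SE 0.138, adjusted P = 2.6e-07). PLG, plasminogen itself, was at most 0.134 TPM on average in either group and was not tested. MDM2, a ubiquitin ligase, was at 98.5 ± 4.15 and 126 ± 3.59 TPM (log2 fold change 0.27, adjusted P = 1.81e-06).

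Of 8 reported receptors of secreted S100 proteins, 6 were tested, none was past the threshold, 5 were lower by adjusted P alone, which 32.8% of all genes were, and the median log2 fold change was -0.37. The 5 were AGER, the receptor RAGE (3.73 ± 0.360 and 2.26 ± 0.658 TPM, log2 fold change -0.80), LY96, the co-receptor of TLR4 (61.4 ± 5.57 and 40.2 ± 1.18, -0.69), NPTN (60.1 ± 4.84 and 43.6 ± 0.607, -0.54), BSG (338 ± 6.48 and 313 ± 7.36, -0.19) and ALCAM (295 ± 8.30 and 281 ± 7.06, -0.15). MCAM did not pass (3.21 ± 0.158 and 2.95 ± 0.509 TPM, adjusted P = 0.149). The TPM of ALCAM overlapped between the groups (285.8 to 300.9 in shCtrl, 273.2 to 287.0 in shNFKBIZ). With library size as the only scaling, the median log2 fold change of all genes was 0.09. Shifts as small as those of BSG and ALCAM thus depend in part on the scaling. LY96 was thus expressed without reads of TLR4 beside it, and BSG and ALCAM were at levels similar to S100A6. These genes, SAA1, MYH9, CACYBP, FGF1 and MDM2 were named after their values had been seen.

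Of the 10 S100 genes that are not members, S100A16, which is widely expressed, was the only abundant gene, at 471.6 ± 7.43 TPM in shCtrl and 366 ± 3.12 in shNFKBIZ. Its reads were 4933, 5119 and 4710 against 3651, 3612 and 3673 (log2 fold change -0.45, SE 0.0337, adjusted P = 1.36e-10), beside -0.40 for S100A11; the difference between these changes was not tested. S100Z was at 0.887 ± 0.0951 and 1.14 ± 0.229 TPM (0.27, adjusted P = 0.492), but its intron reads, 89 in all against 159, were higher (0.74, adjusted P = 0.00224), and so were its exon and intron reads together (0.68, adjusted P = 0.00301). S100A1 had 10 and 7 reads over the 3 libraries of each group. S100A12, S100A14, S100P and S100G had 1 read each, in shNFKBIZ, and S100A5, S100A7 (psoriasin) and S100A7A had 0 reads in all libraries.

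Most S100 genes lie together on chromosome 1. The 16 of the files that do so start at 151982915 (S100A10) and end at 153632039 (S100A1) on hg38. In this stretch and 250 kb on either side, 94 genes that are not S100 genes were listed and 16 of them were tested. Of the 16, 1 was past the threshold and lower and none was past it and higher, against 5.12% and 3.84% of all genes tested. By adjusted P alone 4 were lower and 5 higher, against 32.8% of all genes lower and 4496 of 13843 higher. The median log2 fold change of the 16 was 0.06. The 7 tested S100 genes of chromosome 1 had a median of -0.67.

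The neighbour past the threshold was TDRKH, a Tudor-domain gene of the germline small RNA pathway that lies beyond S100A10, at 6.45 ± 0.0650 and 2.55 ± 0.221 TPM (log2 fold change -1.42, SE 0.113, adjusted P = 3.22e-10). FLG and TCHH, which encode filaggrin and trichohyalin and are large relatives that carry an S100-like domain, lie between S100A11 and S100A6. FLG was at 1.49 ± 0.144 and 2.39 ± 0.293 TPM (0.59, adjusted P = 0.000179), and TCHH was at 0.620 ± 0.151 and 1.26 ± 0.0558 TPM (0.94, adjusted P = 0.000533). FLG-AS1, which overlaps FLG, was lower (8.02 ± 0.220 and 7.65 ± 0.497 TPM, -0.15, adjusted P = 0.0260), so that the stretch between S100A11 and S100A6 held neighbours of both directions. The shift of FLG-AS1 is small: with library size as the only scaling, the median of all genes was 0.09. Counting without strand can also mix the reads of FLG-AS1 and FLG. These 4 neighbours were chosen after their values had been seen.

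**Figure D4:**
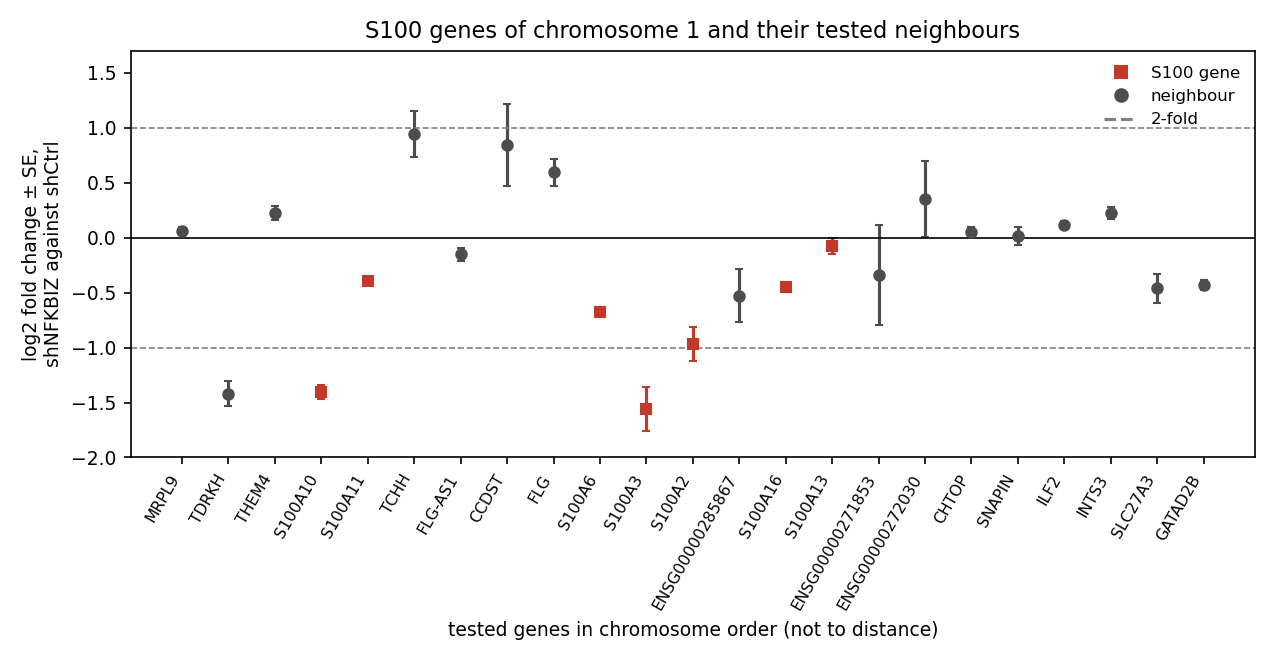
Log2 fold change ± SE (shNFKBIZ against shCtrl, 3 libraries per group) of the 7 tested S100 genes of chromosome 1 (red squares) and their 16 tested neighbours (grey circles) in chromosome order, with dashed lines at 2-fold. The S100 genes run from -1.56 to -0.08, with neighbours on both sides of 0 between them.

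The promoters of 4 members are shown because these genes span the response: S100A10 and S100A3, past the threshold; S100A2, just short of it; and S100A13, with no detectable change. Each line gives the 250 bases before a start listed in RefSeq on GRCh38.p14, 5′ to 3′ along the gene. For S100A2 and S100A13 it is the first of several listed starts. The windows of S100A10 and S100A3 adjoin the loci given above. That of S100A2 lies inside the locus given above and that of S100A13 lies beyond it, so these starts differ from the start of the locus. Capitals mark matches to AP-1 (TGANTCA) or STAT (TTCNNNGAA) motifs, searched on both strands together with the C/EBP motif (TTNNGNAA), the TATA motif (TATAAA) and the κB motif.
S100A10 promoter, chr1:151993860-151994109, minus strand: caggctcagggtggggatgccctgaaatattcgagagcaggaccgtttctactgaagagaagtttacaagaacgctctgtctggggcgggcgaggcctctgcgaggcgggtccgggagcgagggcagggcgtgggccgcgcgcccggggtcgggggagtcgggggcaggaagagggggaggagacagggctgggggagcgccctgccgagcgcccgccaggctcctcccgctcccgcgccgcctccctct
S100A3 promoter, chr1:153549259-153549508, minus strand: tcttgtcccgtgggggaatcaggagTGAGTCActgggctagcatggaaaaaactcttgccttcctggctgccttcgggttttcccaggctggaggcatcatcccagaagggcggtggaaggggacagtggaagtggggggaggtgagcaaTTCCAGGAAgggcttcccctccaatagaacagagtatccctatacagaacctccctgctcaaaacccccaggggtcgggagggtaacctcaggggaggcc
S100A2 promoter, chr1:153565845-153566094, minus strand: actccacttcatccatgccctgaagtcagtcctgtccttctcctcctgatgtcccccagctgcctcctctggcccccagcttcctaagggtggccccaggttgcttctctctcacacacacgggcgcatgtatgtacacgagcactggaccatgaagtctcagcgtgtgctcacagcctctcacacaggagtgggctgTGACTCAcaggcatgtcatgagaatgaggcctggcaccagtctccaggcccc
S100A13 promoter, chr1:153634362-153634611, minus strand: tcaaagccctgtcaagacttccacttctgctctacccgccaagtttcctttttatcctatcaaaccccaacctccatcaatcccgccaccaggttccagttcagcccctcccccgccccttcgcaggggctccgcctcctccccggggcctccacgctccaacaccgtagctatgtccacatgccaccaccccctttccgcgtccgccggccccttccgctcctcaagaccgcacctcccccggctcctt

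The S100A3 window held an AP-1 match, TGAGTCA, 225 bases before the start and a STAT match, TTCCAGGAA, 100 bases before it. The S100A2 window held an AP-1 match, TGACTCA, 52 bases before the start, while the window of its listed start 2 held none of the 5 motifs. The windows of S100A10 and of the first start of S100A13 held none of the 5 motifs. For S100A13, the window of start 2 held a TATA match and that of start 3 a C/EBP match. Those of S100A6 and S100A11, not shown and also lower, held C/EBP matches but no AP-1 or STAT match. Among 35116 promoter windows of this length, 6.57% held the AP-1 motif, 6.57% the STAT motif, 33.2% the C/EBP motif, 10.7% the TATA motif and 9.96% the κB motif. No κB match was found in any listed window of the 9 members with an entry. The GC content of the windows was 71.2% for S100A10, 58.4% for S100A3, 59.2% for S100A2 and 63.2% for S100A13. A match describes the letters only, and the absence of a match says only that they are not in this window.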

How the data were processed

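RNA-seq was analysed for 3 shCtrl and 3 shNFKBIZ libraries, grouped by sample title. The authors mapped reads to hg38 (Ensembl annotation) in CLC Genomics Workbench with default settings, without use of strand, and deposited counts of exon, intron and junction fragments per gene. Reads with several hits are included in total counts, and strand-blind counting can mix overlapping genes. TPM was computed again from these counts and the exon lengths and matched the deposited TPM to within 4.98e-07.

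Genes with low counts were removed with filterByExpr, and total exon reads were compared with edgeR 4.0.16 in R 4.3.3 (TMM factors, robust quasi-likelihood, two-sided, Benjamini-Hochberg over all genes tested). The fold changes are on TMM-scaled counts. The ratio of mean TPM, shNFKBIZ over shCtrl, is slightly higher (0.399 against 0.378 for S100A10, 1.004 against 0.947 for S100A13). SE was taken as the log2 fold change over the square root of F. Intron reads were fitted likewise, and exon against intron changes in 1 model with library blocks. Alternatives covered scaling, filters, tests, read classes, a length trend, a replicate block, thresholds and left-out libraries; DESeq2 1.42.0 was among them. In simulated data, genes were changed by 1.5 on the log2 scale, and smaller changes were not simulated. In the exon fit 91% of 200 changed genes among 13693 were recovered, with 3 unchanged genes called. The intron fit recovered 98.5% of 197 among 11912, with 2 unchanged genes called. The exon against intron fit recovered 93.9% of 196 among 10871, with 10 unchanged genes called. The exon fit drew its changed genes from all genes passing its filter, the other fits from genes passing the exon and intron filters. The exon against intron fit lowered exon reads only and set no fold limit. The rates are thus not comparable, and recovery at intron counts as low as those of the members was not assessed separately. Exon reads ranged from 22264473 to 24624839 per library. The replicates are separate samples, and the counts of each pair differed beyond sampling noise (1.71 to 4.45 chi-square units per degree of freedom).

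The members, the gene lists and the tests were chosen with earlier results of these data known. The named genes are all members, NFKBIZ, the other S100 genes, the up to 4 genes of each list past the threshold with the largest change, the annexin partners, and genes that overlap an S100 gene. Not named above are overlaps on the opposite strand. ENSG00000229021 overlaps S100A11 and held at most 4 reads in any library. ENSG00000238279 overlaps S100A6 and held at most 1. ENSG00000272030 overlaps S100A1 (at most 32), and CTPS2 overlaps S100G (192 to 382 reads). Genes named beside these were chosen after their values had been seen. The exon against intron model was added after the counts had been seen. A gene of the target list is not reported here.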

Additional observations from a re-analysis of the deposited data

How the results depend on the processing

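Over 17 alternative settings, the log2 fold change ranged from -1.49 to -1.32 for S100A10, -1.66 to -1.44 for S100A3, -0.76 to -0.58 for S100A6, -0.48 to -0.31 for S100A11 and -1.83 to -1.66 for NFKBIZ, with the direction and the call of each kept. S100A2 ranged from -1.11 to -0.83 and passed 2-fold with the length trend removed (-1.05) and without shNFKBIZ replicate 3 (-1.11). S100A13 turned to 0.011 with library size alone, a scaling that moved the median of all genes to 0.09, and ranged from -0.14 to 0.012 with a library left out, the highest value without shCtrl replicate 2. The cause was not tested. Intron reads of S100A2 ranged from -0.42 to 0.34 with a library left out, and were negative without shCtrl replicate 1 (-0.05) and without shNFKBIZ replicate 2 (-0.42). With at least 10 counts in every intron library, 0 members passed on introns, since S100A10 was then not tested.

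At a 1.5-fold limit 4 members were past the threshold and lower, and with no fold limit 5. All genes past the threshold numbered 1241 (532 higher, 709 lower), and 3098 at 1.5-fold (1418 and 1680), 9039 with no limit (4496 and 4543), and 1315 to 1361 with a library left out; with library size alone the split was 668 higher and 584 lower; 338 were higher when every library had to hold at least 10 counts, a filter that tests fewer genes. Same-numbered libraries deviated together only weakly (correlations 0.0287, 0.0957 and 0.0373), so the numbers were not treated as pairs. With a replicate block, 1244 genes were past the threshold, S100A10 was at -1.41, S100A3 at -1.56 and S100A2 at -0.98, and no call of a member changed. For S100A3 and S100A2 the counts limit the precision, and for S100A4, S100A8, S100A9 and S100B the depth allowed no test.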
